A study of Mus musculus with 2 samples.

Results

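The 37 genes described here encode Toll-like receptors (TLRs), their co-receptors, adaptors and kinases, NOD-like receptors and inflammasome components, and they were taken by gene symbol from the 24319 rows of the deposited expression lists. All 37 symbols were found. RNA sequencing had been carried out on skin lymphatic endothelial cells (LECs) of C57BL/6 mouse embryos at E15.5 (embryonic day), with 1 library labelled wild type (the control library) and 1 labelled Dot1l knockout (the knockout-labelled library). Dot1l encodes an enzyme that methylates histone H3 on lysine 79. The deletion is endothelial per the labels' protocols, and each library was made from RNA pooled over 2 to 3 biological replicates. The sources used here do not give the driver of the deletion. They describe culture of primary dermal LECs without saying whether the sequenced cells had been cultured. With 1 library per genotype there is no replicate check, no test and no standard deviation between replicates. Every difference below compares these 2 libraries.

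TLRs are membrane proteins that bind conserved molecules of microbes or nucleic acids. Some sit at the cell surface and recognise bacterial lipids, lipoproteins or flagellin, and others sit in endosomes and recognise RNA or DNA. Most signal through the adaptor MYD88 to the IRAK kinases and the ubiquitin ligase TRAF6, which lead to NF-kB and MAP kinase activation. Inflammasomes are cytosolic complexes in which a sensor such as NLRP3, NLRC4 or AIM2 recruits, directly or through the adaptor PYCARD (ASC), the protease caspase 1, which cleaves the precursors of interleukin 1 beta and interleukin 18. Macrophages and other myeloid cells are known for high levels of many of these genes, and endothelial cells also use part of the set.

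Values are FPKM, fragment numbers scaled to the length of the transcript in kilobases and to each 1000000 mapped. The depth of the libraries is not stated. Low values fell on steps of 1 fragment that imply about 10240000 fragments in the control library and 9080000 in the knockout-labelled library, if no further scaling was applied. Dot1l itself was 5.86 FPKM in control and 10.4 in the knockout-labelled library. That value covers the whole gene and does not check the label, because the deleted part is not given. Of the cell type markers, the knockout-labelled library was lower in all 10 pan-endothelial genes (summed 1281 FPKM in control and 299 in the knockout-labelled library) and in 8 of 10 lymphatic endothelial genes (summed 1534 and 804). The other 2 lymphatic endothelial genes were Lyve1 (526 and 552.5 FPKM), which holds most of the second sum, and Itga9 (20.5 and 61.7). Ccl21a, among the 8, was under 1 FPKM in both libraries. The knockout-labelled library was higher in all 15 macrophage markers (summed 62.5 and 3738) and all 10 mast cell markers (summed 112 and 13066). Fewer cells of a type and less RNA per cell cannot be told apart in such samples.

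Most TLR and inflammasome genes had higher values in the knockout-labelled library. Of the 37 genes 32 had a higher value there and 5 a lower one. Differences are given on the scale log2(FPKM + 1), knockout-labelled library minus control, which understates the change of low genes, and folds are ratios of the FPKM themselves. With a minimum of 1 FPKM in at least 1 library, 34 of the 37 genes were measured, of which 23 were higher by 2-fold or more, none lower by 2-fold or more and 11 within 2-fold. Over all 13296 genes at that minimum 16.8% were higher by 2-fold or more and 15.5% lower by 2-fold or more. The median difference was 2.52 over the 34 genes and 0.003 over all genes. With both libraries brought to a sum of 1000000, 22 of the 34 were higher and none lower, beside 14.3% higher and 25.0% lower among all genes, whose median moved to -0.33. Small RNA genes (microRNA genes, small nucleolar and small nuclear RNAs and the like, taken by symbol) made up 2.21% of the summed FPKM in control and 14.7% in the knockout-labelled library, and they enter that sum.

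Many of these genes passed that minimum only through the library in which they were high. In control 17 of the 37 were under 1 FPKM, and 14 of those 17 reached 1 FPKM in the knockout-labelled library. A stricter view uses only the 20 genes at 1 FPKM or more in control. Of these, 10 were higher by 2-fold or more, none lower by 2-fold or more and 10 within 2-fold, with a median difference of 0.99. Among all 12147 genes at 1 FPKM or more in control, 11.1% were higher by 2-fold or more and 17.0% lower by 2-fold or more, with a median of -0.08. The greatest difference of the set was in Nlrp3, which encodes the sensor of the NLRP3 inflammasome, followed by Casp1, which encodes caspase 1. The lowest differences were in Tlr3, which encodes a receptor for double-stranded RNA, and Nod1, which encodes a cytosolic receptor for bacterial peptidoglycan. Only Irak1 reached 10 FPKM in control, whereas 20 of the 37 genes did in the knockout-labelled library.

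**Figure D1:**
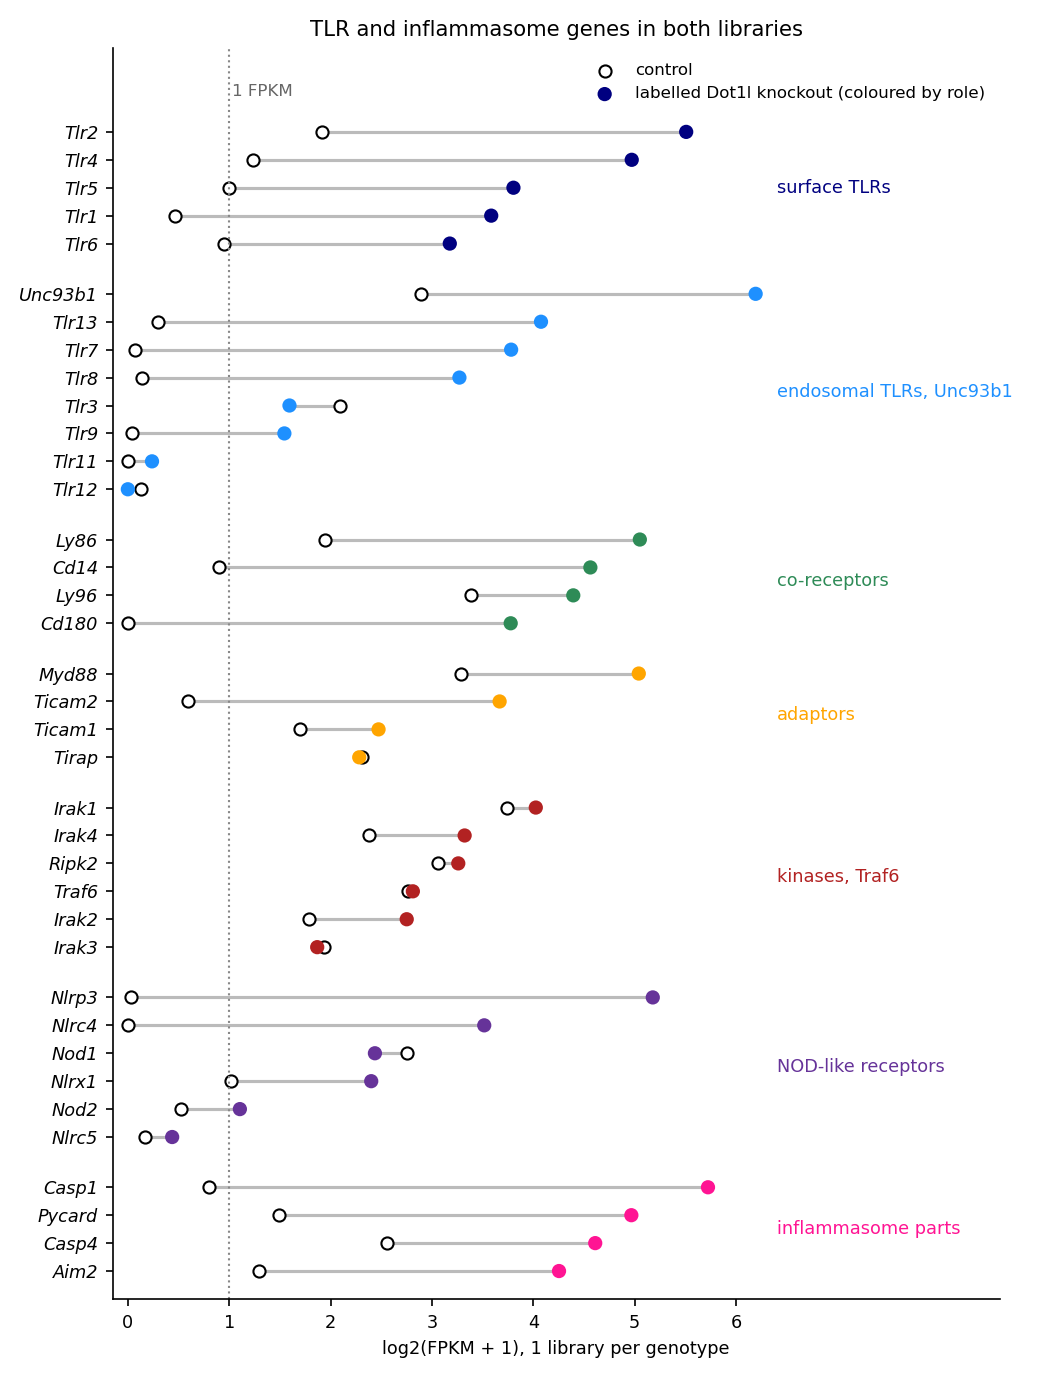
Level of each of the 37 genes as log2(FPKM + 1), with 1 library per genotype; open circles are the control library, filled circles the knockout-labelled library, coloured by role, and the dotted line marks 1 FPKM. The filled circle lies to the right for 32 genes, far to the right for most receptors and inflammasome parts, and close to the open circle for most kinases.

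RefSeq promoter windows on GRCm38.p6, taken as the 250 bases before each annotated start, were found for 29 of the 37 genes. The 8 without a window were Tlr4, Tlr7, Unc93b1, Cd14, Ly96, Ticam2, Ripk2 and Nlrc5. All of these but Ripk2 and Nlrc5 were higher by 2-fold or more, and the motif shares leave them out. Windows of the 2 genes with the highest difference (Nlrp3, Casp1) and the 2 with the lowest (Tlr3, Nod1) are shown to set the ends of the range side by side, using the most upstream start of each gene. Capitals mark matches to a motif on either strand. The Nlrp3 window is chr11:59541319-59541568 on the + strand and the Casp1 window chr9:5298267-5298516 on the + strand. The Tlr3 window is chr8:45410381-45410630 on the - strand and the Nod1 window chr6:54972613-54972862 on the - strand.
Nlrp3: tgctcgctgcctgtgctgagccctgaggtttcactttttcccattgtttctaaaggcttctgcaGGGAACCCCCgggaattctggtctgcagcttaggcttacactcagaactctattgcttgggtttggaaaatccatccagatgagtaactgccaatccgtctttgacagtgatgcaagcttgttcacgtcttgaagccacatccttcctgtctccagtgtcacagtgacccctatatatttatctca
Casp1: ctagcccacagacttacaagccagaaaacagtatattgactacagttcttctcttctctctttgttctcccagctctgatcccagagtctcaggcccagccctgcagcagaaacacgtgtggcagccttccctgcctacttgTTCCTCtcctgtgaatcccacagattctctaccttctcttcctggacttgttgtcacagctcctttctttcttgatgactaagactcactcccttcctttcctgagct
Tlr3: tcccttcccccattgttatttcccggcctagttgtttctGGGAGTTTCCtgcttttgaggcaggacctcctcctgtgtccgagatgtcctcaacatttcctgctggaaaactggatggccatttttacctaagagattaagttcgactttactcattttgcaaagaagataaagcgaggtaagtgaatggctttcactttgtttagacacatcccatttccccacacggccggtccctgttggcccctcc
Nod1: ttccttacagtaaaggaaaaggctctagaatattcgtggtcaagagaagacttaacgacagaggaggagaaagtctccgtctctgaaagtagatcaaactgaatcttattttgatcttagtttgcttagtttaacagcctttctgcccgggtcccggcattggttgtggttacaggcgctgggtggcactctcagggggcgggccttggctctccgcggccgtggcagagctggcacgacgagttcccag
The Nlrp3 window held a match to the NF-kB consensus that began 186 bases before the start, and the Tlr3 window held one that began 211 bases before it. The Casp1 window held the core of the motif of PU.1, a myeloid and B cell transcription factor, 108 bases before the start. The Nod1 window held no match and 12 CpG dinucleotides, beside 6 for Tlr3, 4 for Nlrp3 and 1 for Casp1.

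Over the 29 genes, 11 held the PU.1 core GAGGAA in at least 1 window (37.9%, beside 25.9% of all 27025 genes with a window), namely Casp1, Pycard, Aim2, Nlrp3, Tlr1, Tlr8, Tlr9, Tlr11, Tlr13, Ticam1 and Traf6. Of these Ticam1 and Traf6 lay within 2-fold on the log2 scale and Tlr11 was under 1 FPKM in both libraries. The NF-kB consensus, whose letters include ambiguity codes, was found in 4 genes (13.8%, beside 4.46% of all), namely Tlr2, Tlr3, Nlrp3 and Casp4. The core of the interferon response element (ISRE), which is GAAA, any 2 bases and GAAA, was found in 3 genes (10.3%, beside 3.46%), namely Tlr6, Tlr11 and Myd88. The AP-1 motif TGANTCA was found in Tlr9 alone (3.45%, beside 7.82%). Some genes have more than 1 window, which raises a share by gene. By window (39 for these genes, 32851 in all), the PU.1 core was in 28.2% beside 23.25%, a smaller gap. The NF-kB consensus was in 12.8% of windows beside 3.90%, the ISRE core in 7.69% beside 2.98% and AP-1 in 2.56% beside 6.75%. Windows of the same gene can overlap. Both Casp4 windows do and both held the NF-kB consensus, so the same match may be counted in each. All 4 motifs were searched on both strands, and no motif holds another. These are matches of letters in a short window. They describe the sequence and do not show binding.

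The TLRs of the cell surface were all higher. Tlr2, whose product forms receptors for bacterial lipoproteins with TLR1 or TLR6, was 2.76 FPKM in control and 44.5 in the knockout-labelled library, 16.1-fold higher. Its partner Tlr1 was 0.376 and 11.0 FPKM, 29.2-fold higher. The other partner, Tlr6, was 0.926 and 8.03 FPKM, 8.67-fold higher. Transcripts for all 3 subunits of the lipoprotein receptors were thus at 8 FPKM or more in the knockout-labelled library, and only Tlr2 exceeded 1 FPKM in control. Tlr1 and Tlr6 are neighbours in the genome and similar in sequence. Of the 50-base words in the annotated transcripts of Tlr1, 15.4% also occur in transcripts of another gene, most of them in Tlr6, so the split of reads between them is uncertain in part.

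Tlr4, the lipopolysaccharide receptor, was 1.35 FPKM in control and 30.3 in the knockout-labelled library, 22.5-fold higher. Tlr5, the flagellin receptor, was 0.997 and 13.0 FPKM, 13.0-fold higher. The differences of these 5 surface receptors lay between 2.23 (Tlr6) and 3.74 (Tlr4), with a median of 3.12, a narrow range beside that of the endosomal receptors.

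The endosomal receptors were divided. Tlr13, a receptor for bacterial ribosomal RNA, was 0.227 FPKM in control and 15.9 in the knockout-labelled library. Tlr7 and Tlr8, neighbouring genes on the X chromosome whose products are related receptors of the RNA-sensing group, were 0.0536 and 12.7 FPKM, and 0.0978 and 8.65 FPKM. The control values of both rest on about 2 fragments. The ratio for Tlr7 was 238, with a counting interval (95%, exact binomial) from 64.2 to 1934. For Tlr8 it was 88.4, with an interval from 21.1 to 649.

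Tlr9, the receptor for unmethylated CpG DNA, was 0.0295 and 1.92 FPKM, and its control value corresponds to about 1 fragment. Its ratio of 65.0 has an interval from 11.1 to 2583. Such intervals rest on the estimated depth and an assumed transcript length, and they cover counting error only.

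Tlr3 differed in direction from the other endosomal receptors that reached 1 FPKM in at least 1 library. It was 3.26 FPKM in control and 2.02 in the knockout-labelled library, 1.62-fold lower. It was the highest TLR of the control library, and in the other library every TLR but Tlr9, Tlr11 and Tlr12 was above it. The estimated fragments were about 135 and 74, which gives a ratio of 0.619 with a counting interval from 0.459 to 0.827. Tlr11 and Tlr12, which recognise profilin of protozoan parasites, were at the edge of detection. Tlr11 was listed at 0 in control and 0.180 FPKM in the knockout-labelled library, about 5 fragments, and Tlr12 at 0.0973 and 0, about 3 fragments in control. No difference was detectable for Tlr12 at this depth. Unc93b1, whose product carries the nucleic acid-sensing TLRs to endosomes, was the most abundant of the 37 genes in the knockout-labelled library, with 6.42 FPKM in control and 72.1 there, 11.2-fold higher.

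All 4 co-receptor genes were higher by 2-fold or more, beside 16.8% of all genes at 1 FPKM in at least 1 library. Of the 4, 2 (Ly96 and Ly86) were at 1 FPKM or more in control, where 11.1% of all genes were higher. Cd14, which encodes the protein that hands lipopolysaccharide to TLR4, was 0.867 FPKM in control and 22.6 in the knockout-labelled library, 26.1-fold higher. Ly96, which encodes MD-2, the lipopolysaccharide-binding partner of TLR4, was 9.42 and 20.0 FPKM. It was the second most abundant of the 37 genes in control, and its 2.13-fold ratio was the smallest of the 4. With a log2 difference of 1.01 it lay at the edge of the 2-fold threshold and was within 2-fold under each of the 3 rescalings tried (0.71 to 0.98).

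Cd180 encodes a TLR4-like surface protein, and Ly86 encodes MD-1, its MD-2-like partner. Cd180 was listed at 0 in control and at 12.7 FPKM in the knockout-labelled library. Ly86 was 2.86 and 32.1 FPKM, 11.2-fold higher. Transcripts for both subunits of this complex were thus above 10 FPKM in the knockout-labelled library, and that of the receptor subunit was listed at 0 in control.

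Adaptors differed among themselves. Myd88, used by most TLRs and by the interleukin 1 receptor, was 8.77 FPKM in control and 31.9 in the knockout-labelled library, 3.63-fold higher. Ticam2, which encodes TRAM, the bridge from TLR4 to TRIF, was 0.503 and 11.7 FPKM, 23.2-fold higher. Ticam1, which encodes TRIF itself, was 2.24 and 4.55 FPKM, a log2 difference of 0.78 that lay within 2-fold on that scale. Its FPKM ratio itself was just above 2, at 2.03 with a counting interval from 1.48 to 2.80. Tirap, which bridges TLR2 and TLR4 to MYD88, was 3.97 and 3.86 FPKM, with a ratio of 0.974 and a counting interval from 0.704 to 1.34. Within each bridging pair, one gene was higher by 2-fold or more on the log2(FPKM + 1) scale and the other was not: Ticam2 but not Ticam1, and Myd88 but not Tirap. Of the 50-base words of Ticam2 transcripts 14.6% also occur in transcripts of other genes, mostly Tmed7, so part of its value may be shared.

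Neither Traf6 nor any of the 5 kinases reached a 2-fold difference on the log2(FPKM + 1) scale. Irak4, the first kinase of the pathway, was 4.20 FPKM in control and 9.0 in the knockout-labelled library. Irak2, which sustains the signal, was 2.44 and 5.73 FPKM. These were the largest differences of this group, at 0.94 and 0.97 on the log2 scale, although the FPKM ratios themselves were above 2. Irak1 was the most abundant of the 37 genes in control, with 12.4 FPKM, and was 15.3 in the knockout-labelled library. Irak3, which encodes IRAK-M, a brake on TLR signalling, was 2.82 and 2.65 FPKM. Traf6 was 5.81 and 6.02 FPKM and Ripk2, the kinase of NOD1 and NOD2, was 7.31 and 8.57.

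The differences of these 6 genes ran from -0.07 (Irak3) to 0.97 (Irak2), with a median of 0.24. Those of Irak1, Ripk2 and Traf6 changed sign with both libraries brought to a sum of 1000000, to values between -0.28 and -0.05, a scaling that takes in the unequal small RNA share given above. Adaptors, kinases and Traf6 together made up 52.3% of the summed FPKM of the 37 genes in control and 16.9% in the knockout-labelled library, while their own sum went from 50.4 to 99.2 FPKM. The sum of the other 27 genes went from 46.0 to 487 FPKM. In control these shared signalling genes were thus the larger part of the set, and in the other library the receptors, sensors and inflammasome parts were.

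**Figure D2:**
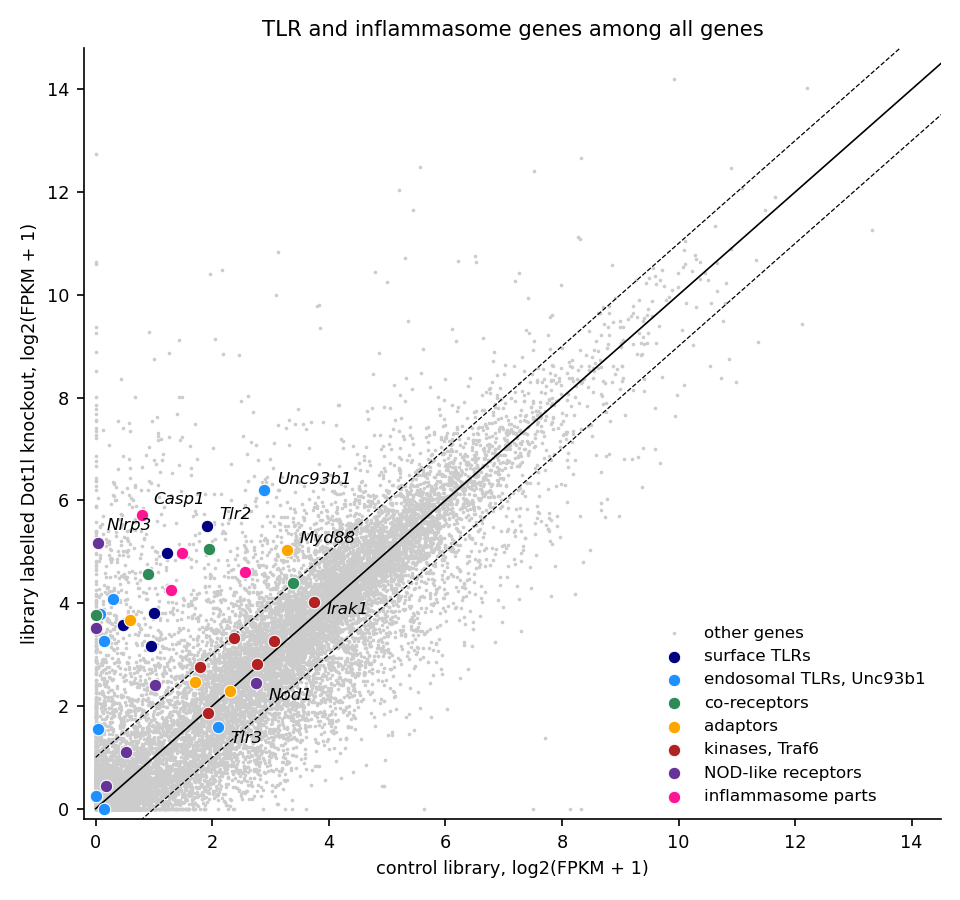
Every gene as log2(FPKM + 1) in the control library (x axis) and in the knockout-labelled library (y axis); grey points are other genes, coloured points the 37 genes by role, the solid line marks equal values and the dashed lines 2-fold. Most receptors and inflammasome genes lie above the upper dashed line at low control values, and the kinases lie between the dashed lines, with Tlr3 and Nod1 just below the solid one.

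The NOD-like receptors differed widely among themselves. Nlrp3 was 0.0252 FPKM in control, about 1 fragment, and 35.2 in the knockout-labelled library. Its ratio of 1397 has a counting interval from 244 to 53800, and its log2 difference of 5.14 ranked 129 among the 13296 genes. Nlrc4, the sensor that works with NAIP proteins, was listed at 0 in control and at 10.4 FPKM in the knockout-labelled library. Nlrx1, a mitochondrial member of the family, was 1.02 and 4.28 FPKM, 4.18-fold higher.

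The peptidoglycan receptors lay within 2-fold on the log2 scale. Nod1 was 5.76 FPKM in control and 4.41 in the knockout-labelled library, 1.31-fold lower, with a ratio of 0.766 and a counting interval from 0.624 to 0.943. Nod2 was 0.435 and 1.15 FPKM, a log2 difference of 0.58. Its FPKM ratio itself was 2.65, with a counting interval from 1.54 to 4.72. Nlrc5, a regulator of MHC class I genes, stayed under 1 FPKM in both, with 0.128 and 0.354. Among the 33 genes with at least 1 estimated fragment in each library, the counting interval of the ratio lay wholly above 1 for 27 genes and included it for 4. It lay wholly below 1 for 2, which were Nod1 and Tlr3.

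All 4 inflammasome components were higher by 2-fold or more, beside 16.8% of all genes at 1 FPKM in at least 1 library. Of the 4, 3 (all but Casp1) were at 1 FPKM or more in control, where 11.1% of all genes were higher. Casp1 was 0.743 FPKM in control and 51.8 in the knockout-labelled library, 69.7-fold higher, and its difference of 4.92 ranked 150 among all genes. Pycard, which encodes the adaptor ASC, was 1.80 and 30.3 FPKM, 16.8-fold higher. Aim2, the cytosolic DNA sensor, was 1.45 and 18.1 FPKM, 12.5-fold higher. Casp4, which encodes caspase 11, the protease that binds cytosolic lipopolysaccharide, was 4.87 and 23.4 FPKM, 4.80-fold higher. Casp1 and Casp4 are neighbours in the genome. The sensor Nlrp3, the adaptor Pycard and the protease Casp1 were all above 30 FPKM in the knockout-labelled library, and in control each was under 2 FPKM.

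**Figure D3:**
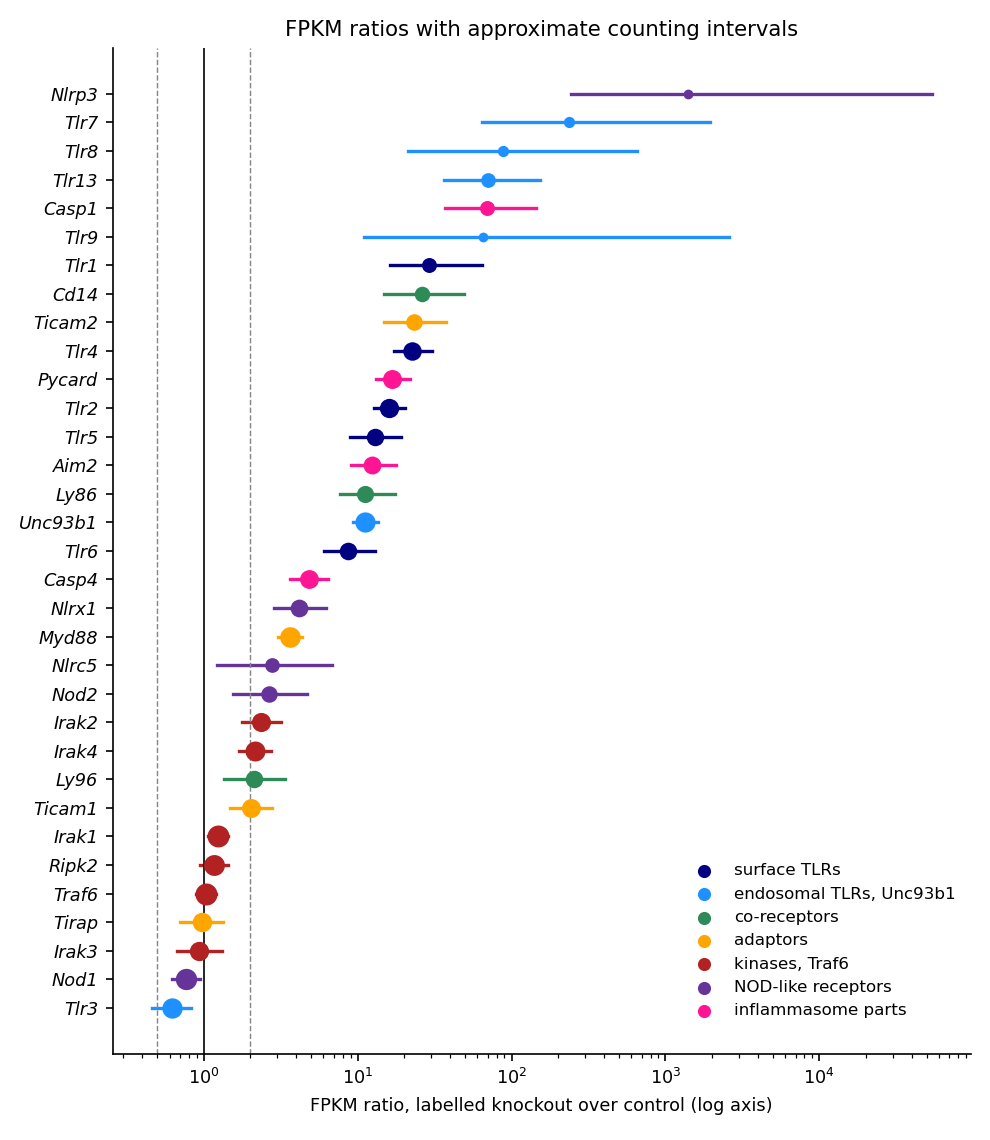
Ratio of FPKM, knockout-labelled library over control, on a log axis, for the 33 genes with at least 1 estimated fragment in both libraries; lines are 95% exact binomial intervals from estimated fragments, which cover counting error only, and larger points have more control fragments. The intervals of Tlr3 and Nod1 lie below 1, those of Irak3, Tirap, Traf6 and Ripk2 include 1, and the widest belong to Nlrp3, Tlr9, Tlr7 and Tlr8, which have 1 or 2 control fragments.

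The other genes of these pathways were taken from 7 lists of 79 genes in all, of which 72 reached 1 FPKM in at least 1 library. Of the 72, 34 were higher by 2-fold or more (47.2%, beside 16.8% of all genes), 3 lower by 2-fold or more and 35 within 2-fold, with a median difference of 0.89. Of the 53 at 1 FPKM or more in control, 16 were higher by 2-fold or more, beside 11.1% of all such genes, 3 lower by 2-fold or more and 34 within 2-fold, with a median of 0.55. Outputs and triggers of the inflammasome were higher by 2-fold or more in 7 of 12 genes, and in 4 of the 9 at 1 FPKM or more in control. Il1b, the precursor of interleukin 1 beta, was 0.174 FPKM in control and 134 in the knockout-labelled library, and Il18 was 0.599 and 46.5. P2rx7, the ATP-gated channel that triggers NLRP3, was 1.68 and 34.3 FPKM. Gsdmd, which encodes the pore protein gasdermin D, was 7.65 and 30.0. By contrast Casp8 (40.2 and 59.4 FPKM), Txnip (95.4 and 77.3) and Hmgb1 (321 and 167) lay within 2-fold, and so did Nek7, the kinase that binds NLRP3 (19.4 and 26.6).

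The genes that prepare TLRs and their ligands went both ways. Of 7 such genes, all at 1 FPKM or more in control, 4 were higher by 2-fold or more and 2 lower by 2-fold or more. Among all genes at that level in control, 11.1% were higher and 17.0% lower by 2-fold or more. The lysosomal proteases Ctss (1.78 and 257 FPKM), Lgmn (26.0 and 351) and Ctsb (33.7 and 301), of which several cleave endosomal TLRs, were higher. Lbp, which encodes the serum protein that passes lipopolysaccharide to CD14, was 58.2 FPKM in control and 8.80 in the knockout-labelled library, 6.61-fold lower. Cd36, a fatty acid and lipoprotein receptor that also assists TLR2, was 153 and 74.1 FPKM. Lbp was thus lower while Cd14, Ly96 and Tlr4, the other genes of lipopolysaccharide recognition, were higher. The chaperone Hsp90b1, which folds TLRs, was 941 and 1093 FPKM.

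Of 19 measured signalling genes downstream of the TLRs, 13 lay within 2-fold, 5 were higher by 2-fold or more and 1 lower. Of the 16 at 1 FPKM or more in control, 2 were higher by 2-fold or more, beside 11.1% of all such genes. The 5 higher genes included Irf5, a transcription factor activated through MYD88 (0.0487 and 28.4 FPKM), and Pik3ap1, an adaptor that links TLRs to PI3 kinase (0.200 and 31.6). Tbk1, which encodes a kinase that activates IRF3, was also higher (24.7 and 62.2 FPKM), whereas the kinase gene Map3k7 (18.3 and 21.6 FPKM) and the ubiquitin-conjugating enzyme gene Ube2n (18.6 and 18.4) lay within 2-fold. Among 9 measured brakes 4 were higher by 2-fold or more, and 3 of the 8 at 1 FPKM or more in control. The 4 were led by Il1rl1, which encodes ST2, the interleukin 33 receptor that mast cells carry (0.829 and 117 FPKM). Tnfaip3, which encodes the ubiquitin-editing enzyme A20, followed (4.64 and 243). Lrrfip1 was 66.4 and 116 FPKM.

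In the NOD pathway 4 of 8 genes were higher by 2-fold or more, beside 16.8% of all genes at 1 FPKM in at least 1 library. Of the 6 at 1 FPKM or more in control 2 were, beside 11.1% of all genes at that level in control. Card9, an adaptor of myeloid cells, was at 0.138 and 18.9 FPKM and Erbin at 79.0 and 74.9. Of the other NOD-like receptors and NAIP genes 7 of 12 reached 1 FPKM, 6 of them only in the knockout-labelled library. Nlrc3, the gene at 1 FPKM or more in control, was 1.23 and 2.07 FPKM, within 2-fold. Naip2, Naip5 and Naip6, whose products recognise bacterial secretion proteins and flagellin for NLRC4, went from under 0.1 FPKM in control to 5.92, 3.45 and 1.74. They belong to a family of similar genes, and their split is uncertain. Of the cytosolic nucleic acid sensors 5 of 10 were higher by 2-fold or more, beside the same 16.8%. Of the 6 at 1 FPKM or more in control only 1 was, beside the same 11.1%. Among the 5 higher sensors was Ifi204, a DNA-binding gene of the interferon-inducible cluster (0.786 and 37.5 FPKM).

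**Figure D4:**
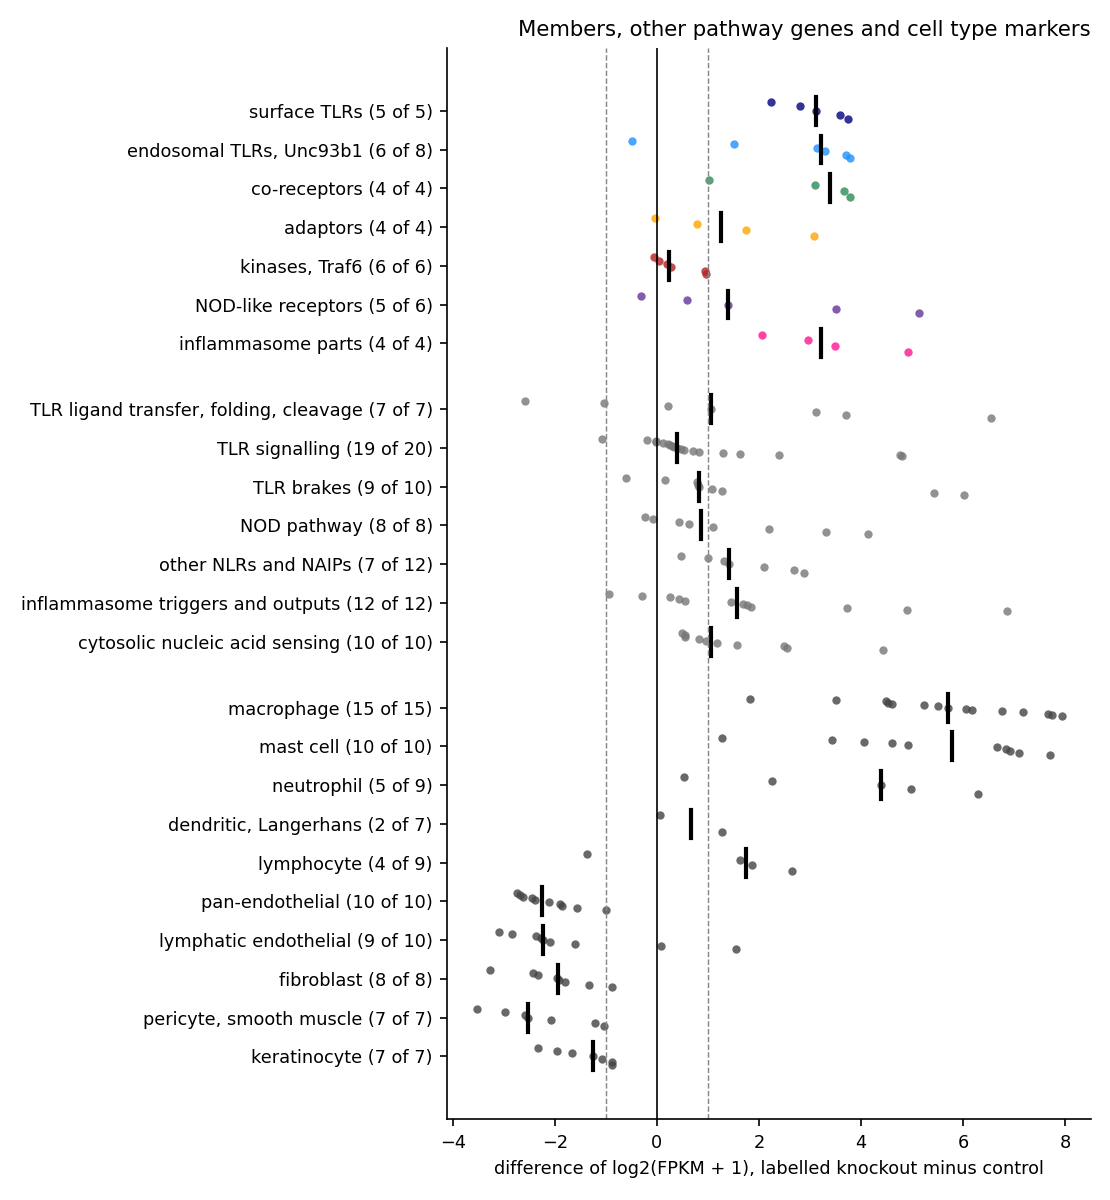
Difference of log2(FPKM + 1), knockout-labelled library minus control, for genes at 1 FPKM or more in at least 1 library (their number of the number listed in parentheses); coloured points are the 37 genes by role, light grey points other pathway genes, dark grey points cell type markers, black bars medians and dashed lines 2-fold. Medians of surface and endosomal receptors, co-receptors and inflammasome parts are 3.12 to 3.38, that of the kinases 0.24, those of macrophage and mast cell markers 5.71 and 5.79, and that of pan-endothelial markers -2.26.

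Markers of blood cells moved with these genes. All 15 macrophage markers were higher by 2-fold or more in the knockout-labelled library, beside 16.8% of all genes, with a median difference of 5.71. Only 7 of them were at 1 FPKM or more in control. All 7 were higher by 2-fold or more, beside 11.1% of all genes at that level in control. Mrc1, the mannose receptor, was at 31.1 and 1211 FPKM, Lyz2, which encodes lysozyme, 13.5 and 657, and C1qc was listed at 0 in control. All 10 mast cell markers were higher by 2-fold or more (median 5.79), with the protease genes Cma1 at 46.2 and 5706 FPKM and Cpa3 at 35.8 and 4211, and Fcer1a listed at 0 in control. Of these 10, 8 were at 1 FPKM or more in control, and all 8 were higher by 2-fold or more. The summed level of 9 neutrophil markers was 7.07 and 346 FPKM, mostly from S100a8 and S100a9. Of these markers 5 reached 1 FPKM in at least 1 library, and 4 were higher by 2-fold or more. Besides S100a8 and S100a9 these were Retnlg and Csf3r, listed at 0 in control and at 30.6 and 3.74 FPKM. Mpo lay within 2-fold (0.783 and 1.56). Ngp, Camp and Ltf were under 1 FPKM in both libraries, and the granule gene Elane was listed at 0 in both. The greatest difference among the 37 genes on the log2(FPKM + 1) scale was 5.14, for Nlrp3. It was smaller than the median of either the macrophage or the mast cell markers on that scale. This order depends on the scale. As an FPKM ratio Nlrp3, at 1397 from about 1 control fragment, was above every macrophage or mast cell marker with a control value above 0. The highest of those was C1qb at 949. Dendritic and Langerhans cell markers summed to 7.61 and 11.4 FPKM with Cd207 at 0 in both, and lymphocyte markers to 5.76 and 14.0. The lymphocyte markers went both ways, with Nkg7 (listed at 0 in control and 5.28 FPKM), Cd79b (0.394 and 4.04) and Il7r (0.224 and 2.76) higher, Lck lower (4.55 and 1.15) and Ms4a1 at 0 in both. Of the other markers, fibroblast genes had a median of -1.94, pericyte and smooth muscle genes of -2.53 and keratinocyte genes of -1.25. Fibroblast genes summed to 3539 FPKM in control and 911 in the knockout-labelled library. Among them Col3a1 was at 1481 and 391 FPKM and Col1a2 at 774 and 222. Pericyte and smooth muscle genes summed to 173 and 27.7 FPKM and keratinocyte genes to 180 and 79.5. The part of these cells in the differences of the TLR and inflammasome genes was not tested.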

How the data were processed

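Each library was deposited as gene symbols with 1 value per gene, taken as FPKM made by the authors, since Cufflinks 2.2.1 and Cuffnorm are named in the submitters' processing notes, beside STAR 2.5.2b, R 3.3.2 and mm9. The sources used here give no annotation, strand setting or scaling between libraries. The same 24319 rows were in both lists, and 27 symbols had become dates. Differences of log2(FPKM + 1) were computed in Python 3.11.15 with pandas 2.3.3, with a minimum of 1 FPKM in either library and a 2-fold threshold. Alternatives were other pseudocounts, scalings, minimums and thresholds. Depth was estimated from values of up to 5 fragments in genes with a single GENCODE M21 transcript of at least 2500 nt, assuming 200 nt fragments. At the best of 500 steps, the share of values within 0.1 of a whole number was 80.0% (of 165) in control and 73.5% (of 181) in the knockout-labelled library. No count model was used, since whole fragments could not be had for every gene. The scripts were tested on simulated data. All 37 genes are named, with pathway and marker genes named by level and size of difference. A few others (Gsdmd, Nek7, Map3k7, Ube2n, Tbk1, Nlrc3, lymphocyte and neutrophil markers, Cd36, Lbp, Naip genes, Itga9, Ccl21a, C1qb and markers at 0) were chosen after their values were seen. Members and lists were chosen with earlier results of these data known. Of the 79 pathway genes, 2 were matched by an older symbol. Coordinates are GRCm38.p6, not mm9, and belong to the RefSeq windows only.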

Additional observations from a re-analysis of the deposited data

How the results depend on the processing

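No paired analysis was possible because there is 1 library per genotype. For the same reason none could be left out, and the spread between embryos or pools is not measured. The count of 23 TLR and inflammasome genes higher by 2-fold or more was between 20 and 26 under the 9 alternatives. The count lower by 2-fold or more was 0 in each. Removing the minimum could not change these counts. A gene under 1 FPKM in both libraries cannot differ by 2-fold on the log2(FPKM + 1) scale. Their median difference of 2.52 was 3.46 with a pseudocount of 0.1, 1.47 with a pseudocount of 5, 2.61 after rescaling to a sum of 1000000, 2.41 with the same upper quartile, 2.50 with the same median, 2.06 with no minimum and 3.10 with a minimum of 5 FPKM. Setting Cd180 and Nlrc4 to the level of 3 fragments in control put their differences at 3.61 and 3.42, both still above that median, which therefore could not move. The 3 other pathway genes lower by 2-fold or more became 5 after rescaling to a sum of 1000000, 5 at 1.5-fold and 1 at 3-fold. Over all genes, 2231 were higher and 2060 lower. A pseudocount of 5 gave 1323 and 921, a 1.5-fold threshold 3464 and 3450, a 3-fold threshold 1298 and 906, and rescaling to a sum of 1000000 gave 3330 lower. Of the 37 genes 34 kept their sign under the 3 rescalings, the exceptions being Irak1, Ripk2 and Traf6. A pseudocount cannot change a sign, so the other pseudocounts do not bear on this. Depth limits the genes with few control fragments: 12 of the 37 rest on 10 or fewer estimated fragments there and 2 on 10 or fewer in the knockout-labelled library.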
